A study of Mus musculus with 9 samples.

Results

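The 36 genes described here code for the enzymes that break glucose down to lactate, for the enzymes that set the pace of that route, and for the hypoxia-inducible factors with some of the genes these factors are known to switch on. They were found by gene symbol among the 84809 rows of the deposited table, 1 row per gene, and 24946 of the rows carry a symbol. The table holds RNA-seq levels of dermal mesenchymal cells of newborn Krt14 cre;Rosa26-mTmG mice, with 3 libraries from CD49f-high cells, 3 from CD49f-low cells and 3 from CD49f-neg cells. CD49f is the integrin alpha 6 subunit, a surface protein that binds laminin, and the gates were set by flow cytometry on freshly isolated cells that were not cultured. In this strain the keratin 14 promoter drives Cre in keratinocytes, and the reporter exchanges a red membrane protein for a green one in cells that carry Cre and in their descendants. All 9 libraries share this genotype, age and tissue. The labels do not say whether libraries of a gate came from separate litters or animals, so p-values measure the spread between these libraries, which may be technical. Levels are FPKM, fragments scaled to transcript length and library depth, so that levels of different genes can be compared. The steps between the low values of each library correspond to 23696682 to 27270248 fragments. The levels come from bulk RNA, in which fewer cells of a type and less RNA per cell cannot be told apart.

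In glycolysis, 10 enzyme steps turn glucose into pyruvate. Hexokinase and phosphofructokinase are its main points of control, and lactate dehydrogenase regenerates the NAD+ that the route consumes. Hypoxia-inducible factors pair an oxygen-sensitive alpha subunit with the stable partner Arnt and bind a short DNA core, the hypoxia response element, near their targets. With oxygen present, prolyl hydroxylases (Egln proteins) mark the alpha subunits, and the VHL protein sends them for degradation. Oxygen thus acts mainly on the protein, and RNA levels of the alpha subunits do not report that step.

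Each gene was compared between gates in limma, a linear model that shares the estimate of the spread across rows, on log2(FPKM + 1). The 20523 rows with at least 1 FPKM in at least 3 libraries were tested, and p-values were adjusted by the method of Benjamini and Hochberg over all of them. Differences with an adjusted p under 0.05 count as called. Values of a gate are listed in the order of replicates 1, 2 and 3. Of the 36 genes 35 were tested, and the brain-type aldolase gene Aldoc (0.0618 to 0.338 FPKM) was not. Ldhb, Epas1 and Ankrd37 stayed below 1 FPKM in every CD49f-neg library and passed the filter through the other gates. The same holds for Arnt2 and Bhlhe41 of the wider lists given further on. Of these, Bhlhe41 needed its CD49f-low libraries to pass. Slc2a3 passed through CD49f-high alone. Such genes thus had to differ between gates. The log2 difference of a low gene is understated on this scale.

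The RNA of the sorted antigen followed the gates. Itga6 was listed at 0.283 to 0.710 FPKM in CD49f-neg, 4.38 to 6.09 FPKM in CD49f-low and 15.9 to 24.1 FPKM in CD49f-high. Markers of other cell types differed between gates too. The summed level of 10 pericyte and smooth muscle markers was 30.6 to 43.3 FPKM in CD49f-neg, 85.3 to 158 in CD49f-low and 748 to 1390 in CD49f-high, where all 10 were called higher than in CD49f-neg and none was at 0. The summed level of 8 melanocyte markers was 2.67 to 4.12, 439 to 534 and 22.6 to 53.8 FPKM in the same order, with Mlana listed at 0 in 2 CD49f-neg libraries. Fibroblast markers (9) were highest in CD49f-neg, at 13800 to 16900 FPKM, against 5570 to 6820 in CD49f-low and 4020 to 6040 in CD49f-high. The 9 blood endothelium markers summed to 2.43 to 4.24 FPKM in CD49f-neg, 8.34 to 9.07 in CD49f-low and 19.6 to 34.0 in CD49f-high, with Emcn listed at 0 in 2 CD49f-neg libraries and Cdh5 in 1. The 7 keratinocyte markers summed to 2.12 to 3.11, 7.63 to 13.3 and 17.9 to 42.9 FPKM in the same order. Immune markers (8) summed to 1.59 to 3.85 FPKM in all libraries. Proliferation genes (8) summed to 42.5 to 55.9 FPKM in CD49f-neg, 77.3 to 99.0 in CD49f-low and 62.5 to 79.2 in CD49f-high, and dissociation stress genes (9) to 1570 to 2970 FPKM over all libraries. One library stood apart: in CD49f-high replicate 1 the 6 adipocyte markers summed to 301 FPKM, against 39.6 and 30.8 FPKM in the other CD49f-high libraries. The same library had the highest pericyte and smooth muscle sum of its gate, 1388 FPKM against 747.9 and 949.5. Its fibroblast sum was the lowest, 4017 FPKM against 6043 and 5941, and so was its melanocyte sum, 22.6 against 49.8 and 53.8. Values without CD49f-high replicate 1 are given below for several genes. The part of these cell types in the results on glycolysis and hypoxia genes was not tested.

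Between CD49f-high and CD49f-neg cells, 17 of the 35 tested genes were higher in CD49f-high and 1 was lower, where 13.9% of all rows were called higher and 8.27% lower, 22.1% in all. Between CD49f-low and CD49f-neg cells, 7 were higher in CD49f-low and none lower, against 12.8% and 2.62% of all rows, 15.4% together. Ldhb, Epas1 and Ankrd37 among the 17, and Ldhb and Epas1 among the 7, passed the filter through the gates where they are high. Their part in these counts is no independent result. At an unadjusted p under 0.05, 2 genes were lower in CD49f-low, and 2 became called as lower under median-of-ratios scaling. Between CD49f-high and CD49f-low cells, 6 were higher in CD49f-high and 1 was lower, against 5.93% and 10.5% of all rows, 16.4% together. A moderated F test over the gates called 17 of 35, against 28.5% of all rows. The median log2 difference of the tested genes was 0.50 for CD49f-high against CD49f-neg, 0.31 for CD49f-low against CD49f-neg and 0.17 for CD49f-high against CD49f-low. The medians over all tested rows were 0.07, 0.21 and -0.15 in the same order. Median-of-ratios scaling brought the median of all rows for CD49f-low against CD49f-neg to 0.01 and that for CD49f-high against CD49f-low to -0.01. Differences given without that scaling still contain the medians over all rows and are to be read against them.

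Under median-of-ratios scaling, 15 genes were higher and 3 lower in CD49f-high relative to CD49f-neg (12.1% and 10.9% of all rows). The counts were 4 and 2 for CD49f-low against CD49f-neg (5.44% and 5.33%) and 9 and 1 for CD49f-high against CD49f-low (7.86% and 6.49%). With replicate number as a block in the model, 19 were higher and 4 lower in CD49f-high relative to CD49f-neg (19.7% and 11.6% of all rows). The block gave 8 and 2 for CD49f-low against CD49f-neg (24.0% and 4.34%), 9 and 1 for CD49f-high against CD49f-low (8.07% and 17.8%) and 23 by the F test (43.8%). The libraries did not overlap for 18 genes higher and 3 lower in CD49f-high relative to CD49f-neg (22.5% and 13.9% of all rows). The counts without overlap were 13 and 1 for CD49f-low against CD49f-neg (34.8% and 5.77%) and 12 and 7 for CD49f-high against CD49f-low (10.3% and 27.0%).

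**Figure D1:**
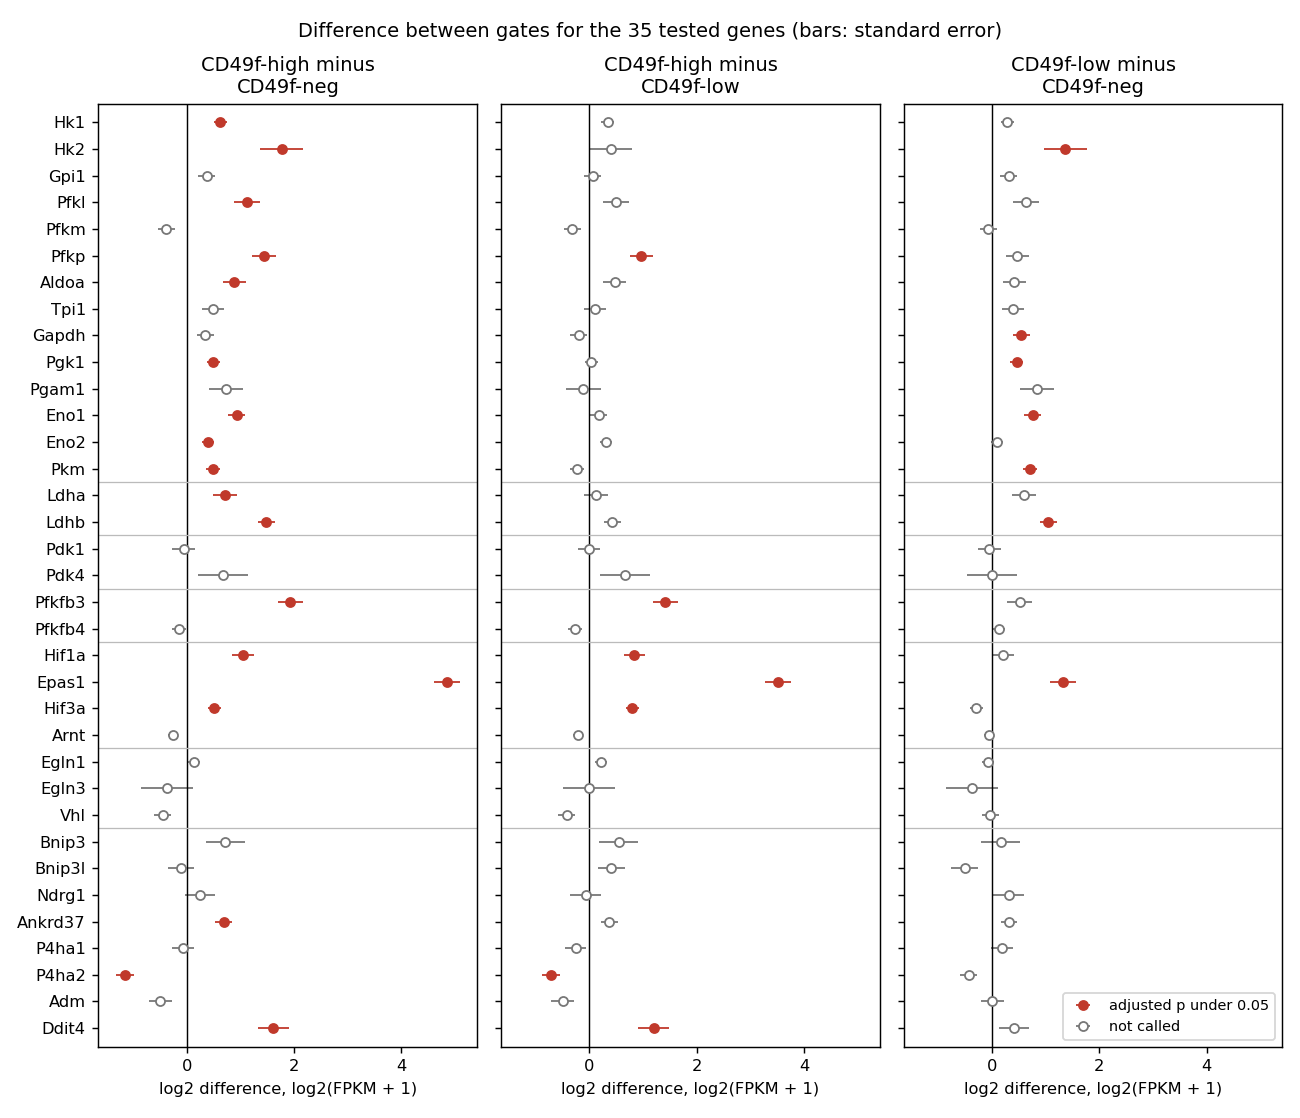
Differences between gates for the 35 tested genes, in log2(FPKM + 1), with standard errors over 3 libraries a gate. Filled points have an adjusted p under 0.05 over all 20523 rows; Epas1 stands farthest from 0 in both contrasts of CD49f-high, at 4.85 and 3.52.

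Among the hypoxia-inducible factor subunits, 3 of 4 were higher in CD49f-high relative to both other gates, and Epas1 differed most. Epas1 (row on chromosome 17, 86753907 to 86833410, GRCm38) codes for HIF-2 alpha, an alpha subunit known from vascular cells. Epas1 had 0.437, 0.223 and 0.131 FPKM in CD49f-neg, 1.69, 1.73 and 3.30 FPKM in CD49f-low and 47.1, 25.5 and 36.0 FPKM in CD49f-high. The gates did not overlap, and each step was called: by 4.85 ± 0.24 (SE) in log2 between CD49f-high and CD49f-neg (limma, adjusted p = 4.21e-06), by 3.52 ± 0.24 between CD49f-high and CD49f-low (adjusted p = 3.39e-05) and by 1.33 ± 0.24 between CD49f-low and CD49f-neg (adjusted p = 0.00653). As a ratio of mean FPKM, Epas1 was 137-fold higher in CD49f-high relative to CD49f-neg and 8.49-fold higher in CD49f-low than in CD49f-neg. Without CD49f-high replicate 1, CD49f-high differed by 4.64 from CD49f-neg (limma, adjusted p = 9.91e-06) and by 3.31 from CD49f-low (9.58e-05). The summed blood endothelium and pericyte markers given above ran in the same order of gates, and their part in the level of Epas1 was not tested.

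Hif1a (chromosome 12, 73901375 to 73947530) codes for HIF-1 alpha, the subunit present in nearly all cell types. Hif1a had 14.0, 10.96 and 10.98 FPKM in CD49f-neg, 14.3, 14.2 and 13.2 FPKM in CD49f-low and 35.9, 19.1 and 24.4 FPKM in CD49f-high. Its 3 CD49f-high libraries lay above the other 6, which covered a narrow range. It was higher in CD49f-high relative to CD49f-neg by 1.04 ± 0.20 (adjusted p = 0.00457) and relative to CD49f-low by 0.84 ± 0.20 (adjusted p = 0.0190), and CD49f-low and CD49f-neg differed by 0.21 ± 0.20 (adjusted p = 0.492). The difference from CD49f-low had adjusted p = 0.0513, 0.0522 and 0.0688 without CD49f-low replicate 1, 2 or 3. Without CD49f-high replicate 1, the differences of Hif1a were 0.81 from CD49f-neg (limma, adjusted p = 0.00528) and 0.60 from CD49f-low (0.0263).

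Hif3a (chromosome 7, 17031507 to 17062427) codes for HIF-3 alpha, whose splice forms include inhibitors of the other alpha subunits. It had 4.64, 6.03 and 5.03 FPKM in CD49f-neg, 4.18, 3.71 and 4.38 FPKM in CD49f-low and 7.59, 7.43 and 8.59 FPKM in CD49f-high, so that CD49f-low was the lowest gate. Hif3a was higher in CD49f-high relative to CD49f-low by 0.80 ± 0.12 (adjusted p = 0.00163) and relative to CD49f-neg by 0.51 ± 0.12 (adjusted p = 0.0124). The difference of CD49f-low from CD49f-neg was -0.29 ± 0.12 (adjusted p = 0.125), and -0.52 after median-of-ratios scaling (adjusted p = 0.0205). The row of the common partner Arnt also covers Ctsk, a protease gene, so which of these it measured is uncertain. It had 9.76, 10.6 and 9.07 FPKM in CD49f-neg, 9.37, 9.38 and 9.49 FPKM in CD49f-low and 7.66, 8.07 and 8.36 FPKM in CD49f-high, the lowest gate, and CD49f-high differed from CD49f-neg by -0.26 ± 0.10 (limma, adjusted p = 0.0839, or 0.0194 after median-of-ratios scaling).

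Of the summed FPKM of Hif1a and Epas1, Epas1 made up 3.02%, 2.00% and 1.18% in CD49f-neg, 10.6%, 10.8% and 20.0% in CD49f-low, and 56.8%, 57.1% and 59.6% in CD49f-high. An exact permutation test of the F statistic over the 1680 assignments of 9 libraries to 3 gates gave p = 0.00357, the smallest it can give (two-sided, adjusted p = 0.0107 over the 9 shares tested).

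**Figure D2:**
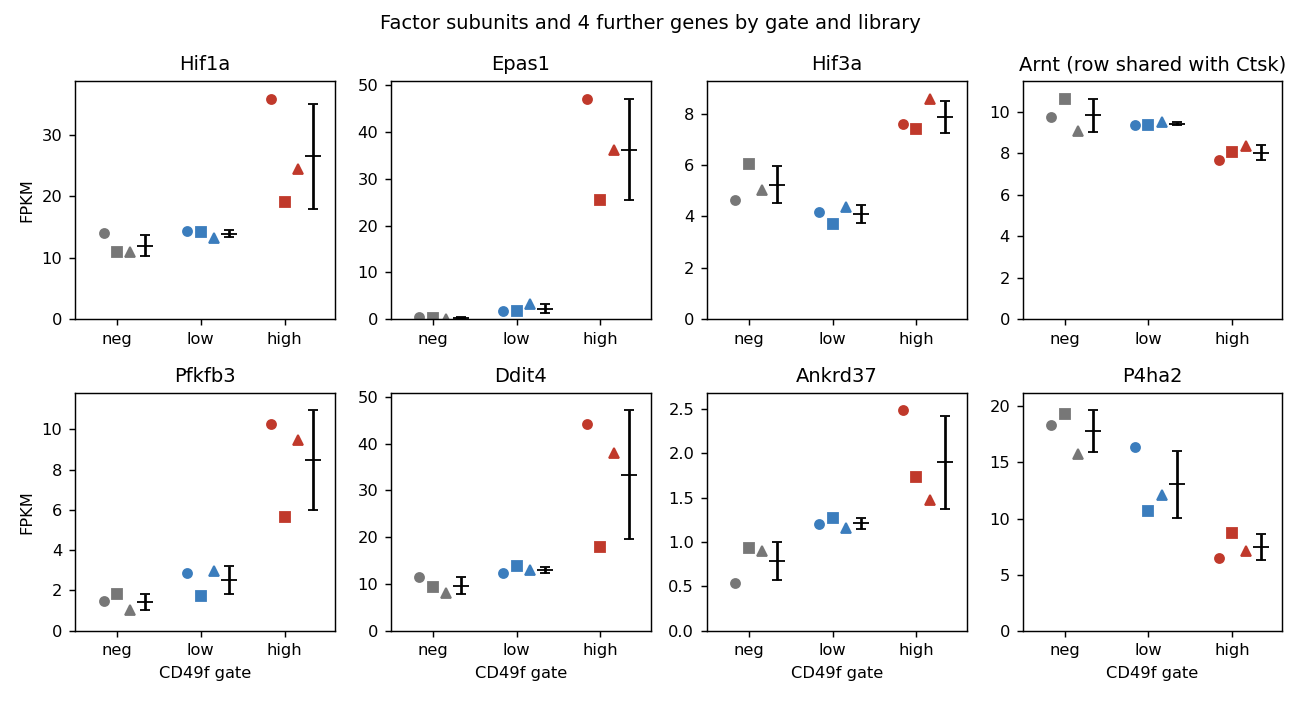
FPKM of the 4 factor subunits and of Pfkfb3, Ddit4, Ankrd37 and P4ha2 in each library, by CD49f gate; circles, squares and triangles are replicates 1, 2 and 3, and the bar is the mean with its SD. Epas1 lies between 25.5 and 47.1 FPKM in CD49f-high and at or below 3.30 FPKM elsewhere, and P4ha2 is lowest in CD49f-high.

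The oxygen sensors and Vhl were not called in any contrast, 0 of 3 by limma over all rows, and 1 of 3 was lower in CD49f-high at an unadjusted p under 0.05 against either other gate. Egln1, the main prolyl hydroxylase, averaged 8.70 ± 1.01 FPKM in CD49f-neg, 8.17 ± 0.452 FPKM in CD49f-low and 9.65 ± 0.592 FPKM in CD49f-high (SD, n = 3 each). After median-of-ratios scaling Egln1 was called higher in CD49f-high relative to CD49f-low, by 0.38 (limma, adjusted p = 0.0381). Vhl had 6.55, 6.85 and 6.65 FPKM in CD49f-neg, 7.33, 6.57 and 5.78 in CD49f-low and 3.40, 5.12 and 5.63 in CD49f-high. Its CD49f-high libraries lay below all others, with a difference from CD49f-neg of -0.45 ± 0.16 (limma, adjusted p = 0.0707). That difference had adjusted p = 0.0429 after median-of-ratios scaling and 0.0415 without CD49f-high replicate 3, and it was -0.27 without CD49f-high replicate 1 (0.162). Egln3, a hydroxylase that is itself a hypoxia target, is described further on. Of the other regulators fixed as a wider list, 1 of 10 tested was higher in CD49f-high relative to CD49f-neg, 1 was higher in CD49f-low than in CD49f-neg, and 1 was lower in CD49f-high relative to CD49f-low. The 1 gene of the first pair of counts was Arnt2, an alternative partner of the alpha subunits known from neurons, with 0.247, 0.286 and 0.199 FPKM in CD49f-neg, 3.16, 2.81 and 3.32 FPKM in CD49f-low and 1.28, 4.99 and 4.97 FPKM in CD49f-high. Arnt2 differed by 1.80 ± 0.32 between CD49f-high and CD49f-neg (adjusted p = 0.00305) and by 1.72 ± 0.32 between CD49f-low and CD49f-neg (adjusted p = 0.00701). Since Arnt2 passed the filter through the gates where it is high, these calls are no independent result. Without CD49f-high replicate 1, its low library, Arnt2 was also called between CD49f-high and CD49f-low (adjusted p = 0.0165, against 0.881 with it). Sox10, a marker of Schwann cells and melanocytes, was low in the same library, with 7.46, 32.5 and 44.9 FPKM in CD49f-high, against 20.7, 21.9 and 26.7 FPKM in CD49f-low and 0.0564 to 0.0952 FPKM in CD49f-neg, and the part of these cells in the level of Arnt2 was not tested. Hif1an, the asparagine hydroxylase that blocks the factors' activation domain, had 5.39 to 5.95 FPKM in CD49f-high and 7.26 to 7.47 FPKM in CD49f-low. Its difference of -0.32 ± 0.09 between them was called at adjusted p = 0.0492 and had 0.353 after median-of-ratios scaling. Leaving out any 1 of the 9 libraries other than CD49f-neg replicate 1 also ended that call (adjusted p = 0.0601 to 0.149). After median-of-ratios scaling Hif1an was called lower in CD49f-high relative to CD49f-neg, with a difference of -0.33 (limma, adjusted p = 0.0333, against 0.112).

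Both hexokinase genes were higher in CD49f-high relative to CD49f-neg, and Hk2 was higher in CD49f-low as well. Hk2, the inducible hexokinase, had 2.59, 2.01 and 0.654 FPKM in CD49f-neg, 4.61, 9.17 and 4.40 FPKM in CD49f-low and 11.1, 10.04 and 4.28 FPKM in CD49f-high. CD49f-low and CD49f-high overlapped, and both lay above CD49f-neg. Hk2 was higher by 1.77 ± 0.39 in CD49f-high relative to CD49f-neg (limma, adjusted p = 0.0102), and by 1.55 without CD49f-high replicate 1 (0.038). In CD49f-low it was higher than in CD49f-neg by 1.37 ± 0.39 (adjusted p = 0.0452). The last call was lost after median-of-ratios scaling (adjusted p = 0.0919) and without CD49f-neg replicate 2 or 3, CD49f-low replicate 1, 2 or 3 or CD49f-high replicate 2 (0.0572 to 0.145). Hk1, the hexokinase of most resting tissues, had 5.54, 5.54 and 5.44 FPKM in CD49f-high against 2.76, 3.63 and 3.29 FPKM in CD49f-neg, a difference of 0.63 ± 0.12 (adjusted p = 0.00563). With the replicate block Hk1 was also higher in CD49f-high relative to CD49f-low, by 0.34 (adjusted p = 0.0400, against 0.0997 without it, and 0.0280 after median-of-ratios scaling). The share of Hk2 in Hk1 + Hk2 ran from 16.6% to 48.5% in CD49f-neg, 50.1% to 66.4% in CD49f-low and 44.1% to 66.7% in CD49f-high (exact permutation test, two-sided, p = 0.0964, adjusted p = 0.108).

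The mix of phosphofructokinase RNAs differed between gates. The liver-type gene Pfkl, the platelet-type gene Pfkp and the muscle-type gene Pfkm code for subunits of 1 tetramer. Pfkp (chromosome 13, 6579768 to 6648777) had 2.16, 1.35 and 1.11 FPKM in CD49f-neg, 2.96, 2.58 and 1.94 FPKM in CD49f-low and 7.86, 4.35 and 5.61 FPKM in CD49f-high. It was higher in CD49f-high relative to CD49f-neg by 1.44 ± 0.22 (adjusted p = 0.00120) and relative to CD49f-low by 0.97 ± 0.22 (adjusted p = 0.0141, or 0.0608 without CD49f-low replicate 3). With the replicate block, Pfkp was higher in CD49f-low than in CD49f-neg too, by 0.47 (adjusted p = 0.0370, against 0.166 without it). Pfkl had 14.1, 6.17 and 8.27 FPKM in CD49f-high against 2.96, 4.19 and 3.66 FPKM in CD49f-neg, a difference of 1.13 ± 0.24 (adjusted p = 0.00795), and of 0.83 without CD49f-high replicate 1 (0.00848). CD49f-low libraries lay between, at 5.44, 6.15 and 6.77 FPKM, and differed from CD49f-neg by 0.63 ± 0.24 (adjusted p = 0.102, or 0.0219 without CD49f-high replicate 1). Pfkm ran the other way, with 5.86, 6.69 and 7.58 FPKM in CD49f-high against 7.04, 10.7 and 9.72 FPKM in CD49f-neg. That difference of -0.39 ± 0.16 was not called (adjusted p = 0.120), and was called with the replicate block (0.0237) and without CD49f-neg replicate 1 (0.0235).

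As a share of the 3 genes, Pfkm made up 57.9%, 65.9% and 67.1% in CD49f-neg, 47.5%, 49.9% and 52.3% in CD49f-low and 21.1%, 38.9% and 35.3% in CD49f-high, with no overlap between gates. The exact permutation test of the F statistic gave p = 0.00357, the smallest it can give (two-sided, adjusted p = 0.0107). The share of Pfkp was 7.66% to 17.8% in CD49f-neg, 10.6% to 18.5% in CD49f-low and 25.3% to 28.3% in CD49f-high (exact permutation test, two-sided, p = 0.0179, adjusted p = 0.0321). CD49f-neg, where the muscle-type gene prevailed, held the lowest summed skeletal muscle markers, 2.09 to 3.56 FPKM, against 16.9 to 24.8 in CD49f-low and 31.2 to 59.8 in CD49f-high, and the part of muscle cells was not tested. Des is in this list and also among the pericyte and smooth muscle markers, so the sum is not specific to skeletal muscle.

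The enzymes that make and break fructose 2,6-bisphosphate, the activator of phosphofructokinase, differed from each other. Pfkfb3 (chromosome 2, 11471433 to 11554077), the form with the strongest kinase activity and a known hypoxia target, had 1.47, 1.82 and 1.04 FPKM in CD49f-neg, 2.86, 1.71 and 2.99 FPKM in CD49f-low and 10.3, 5.66 and 9.49 FPKM in CD49f-high. The CD49f-high libraries stood above all others. Pfkfb3 was higher in CD49f-high relative to CD49f-neg by 1.93 ± 0.23 (adjusted p = 0.000303) and relative to CD49f-low by 1.41 ± 0.23 (adjusted p = 0.00284), and without CD49f-high replicate 1 these were 1.79 (0.00139) and 1.27 (0.0108). Pfkfb4, a related enzyme, kept to 1.41 to 2.31 FPKM in all libraries and was not called. Of the other members of the family, Pfkfb2 had 1.21 to 2.41 FPKM in a row that also covers Gm29427 and C4bp-ps1 and was not called, and Pfkfb1 (0.141 to 1.21 FPKM) was not tested.

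In the middle of the route, Aldoa, the aldolase of most tissues, had 15.6, 15.8 and 13.7 FPKM in CD49f-neg, 22.2, 19.6 and 19.3 FPKM in CD49f-low and 43.3, 23.8 and 22.9 FPKM in CD49f-high. It was higher in CD49f-high relative to CD49f-neg by 0.89 ± 0.21 (adjusted p = 0.0147), by 0.60 without CD49f-high replicate 1 (0.00576), and was not called without CD49f-neg replicate 3 (0.0566). Between CD49f-low and CD49f-neg, whose libraries did not overlap, Aldoa differed by 0.41 ± 0.21 (limma, adjusted p = 0.208, or 0.0237 without CD49f-high replicate 1). Tpi1, which interconverts the triose phosphates made by aldolase, had 14.1 to 17.2 FPKM in CD49f-neg, 19.3 to 21.3 FPKM in CD49f-low and 16.9 to 32.5 FPKM in CD49f-high and was not called, except between CD49f-low and CD49f-neg without CD49f-high replicate 1 (0.39, 0.0359). Pkm, the pyruvate kinase of tissues other than liver and red cells, was higher in CD49f-low (22.02, 21.8 and 20.9 FPKM) than in CD49f-neg (12.2, 14.2 and 12.0 FPKM), by 0.71 ± 0.13 (adjusted p = 0.00589). CD49f-high, with 21.6, 18.3 and 15.4 FPKM, lay above CD49f-neg by 0.49 ± 0.13 (adjusted p = 0.0229). The Pkm call for CD49f-high was lost without CD49f-neg replicate 1 (0.0584) or 3 (0.0839) and without CD49f-high replicate 1 (0.0576) or 2 (0.0583). The row of the neuron-type enolase Eno2 also covers Grcc10, Atn1 and Rnu7, so its level cannot be put to Eno2. It had 9.19, 11.1 and 10.7 FPKM in CD49f-neg, 10.1, 11.4 and 11.6 FPKM in CD49f-low and 15.4, 13.4 and 13.1 FPKM in CD49f-high. Its difference of 0.40 ± 0.11 between CD49f-high and CD49f-neg was called (adjusted p = 0.0298) and was lost after median-of-ratios scaling (0.0762) and without CD49f-neg replicate 1 or 3 or CD49f-high replicate 1 or 2 (0.0541 to 0.0813). After that scaling the row was also called higher in CD49f-high relative to CD49f-low, by 0.48 (adjusted p = 0.0166, against 0.0932).

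Several glycolytic rows held only a small part of the signal of their sequence. A search of each gene's coding sequence against the transcripts of GENCODE M21 found 86 annotated copies at 95% identity or more over at least 50% of the coding sequence, and 79 rows of the table belong to copies of 8 of the genes. Processed copies of this kind are common for glycolytic genes in mouse, and reads of a copy and its parent cannot be told apart where the sequence is the same. How the authors treated such reads is not given in the sources used here. Gapdh, the enzyme often used as a control gene, had 4.26 to 9.52 FPKM in its own row and 171 to 432 FPKM when 68 copy rows were added, so that its own row held 1.51% to 3.10%. Pgk1, which makes the first ATP of the route, had 1.19 to 2.62 FPKM alone and 26.1 to 68.8 FPKM with Gm5537 and Pgk1-rs7. Eno1, the common enolase, had 1.56 to 5.42 FPKM alone and 43.1 to 144 FPKM with 3 copy rows. The own row held 4.09% to 13.6% of the sum for Pgam1, 21.2% to 25.1% for Gpi1 and 31.4% to 46.9% for Ldhb. Among the hypoxia targets it held 19.8% to 37.6% for Bnip3 and 7.24% to 20.2% for Bnip3l. Sums of FPKM over rows of unequal length are approximate.

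**Figure D3:**
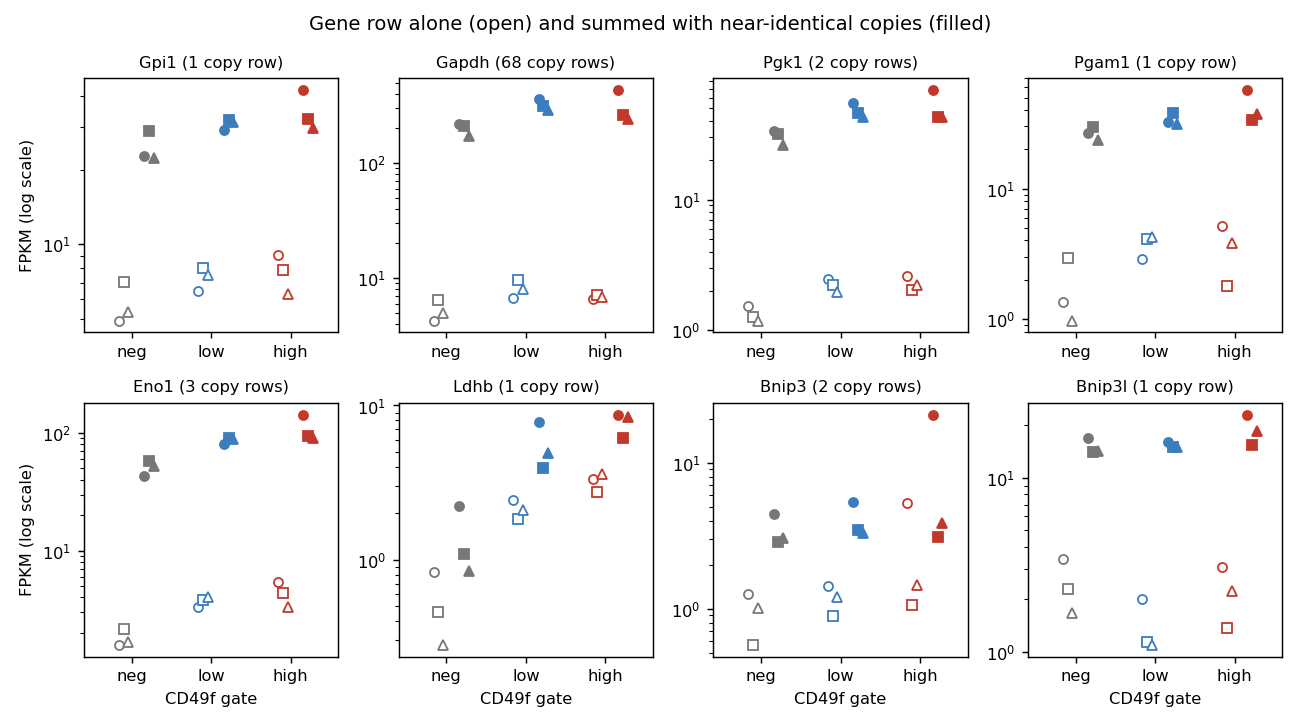
FPKM on a log axis of each gene's own row (open symbols) and of that row summed with its near-identical copies (filled symbols), by CD49f gate; circles, squares and triangles are replicates 1, 2 and 3. Gapdh lies at 171 to 432 FPKM with its copies, against 4.26 to 9.52 FPKM alone, and the order of the gates for Eno1 and Ldhb is the same in both.

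Eno1 was called in its own row and with its copies. Alone it had 1.56, 2.13 and 1.66 FPKM in CD49f-neg, 3.27, 3.79 and 4.01 FPKM in CD49f-low and 5.42, 4.36 and 3.28 FPKM in CD49f-high. It was higher by 0.93 ± 0.16 in CD49f-high relative to CD49f-neg (adjusted p = 0.00259) and by 0.76 ± 0.16 in CD49f-low than in CD49f-neg (adjusted p = 0.0136). With copies added the differences were 1.07 (0.00257) and 0.77 (0.0236). The Eno1 call for CD49f-low was lost in the own row without CD49f-neg replicate 3 (0.0548), CD49f-low replicate 2 (0.0515) or CD49f-low replicate 3 (0.0580). Pgk1 (chromosome X) had 1.54, 1.27 and 1.19 FPKM in CD49f-neg, 2.46, 2.22 and 1.96 FPKM in CD49f-low and 2.62, 2.04 and 2.21 FPKM in CD49f-high, and CD49f-neg lay below both other gates. It was higher by 0.50 ± 0.12 in CD49f-high relative to CD49f-neg (adjusted p = 0.0170, with copies 0.71 and 0.0267) and by 0.46 ± 0.12 in CD49f-low than in CD49f-neg (adjusted p = 0.0342, with copies 0.64 and 0.0526). The Pgk1 call for CD49f-high was lost without CD49f-neg replicate 2 or 3 or CD49f-high replicate 1 (0.0546 to 0.0704). That for CD49f-low was lost after median-of-ratios scaling (0.198) and without CD49f-neg replicate 2 or 3 or any 1 CD49f-low replicate (0.0626 to 0.119). Gapdh was higher in CD49f-low (6.66, 9.52 and 7.97 FPKM) than in CD49f-neg (4.26, 6.50 and 4.92 FPKM) by 0.54 ± 0.16 (adjusted p = 0.0464). The Gapdh call was lost with copies (0.0657), after median-of-ratios scaling (0.286) and without any 1 library other than CD49f-neg replicate 2 or CD49f-low replicate 1 (0.0513 to 0.151). In CD49f-high, Gapdh had 6.54, 7.13 and 6.79 FPKM and differed from CD49f-neg by 0.34 ± 0.16 (adjusted p = 0.16, with the replicate block 0.0379). Pgam1 was not called in its own row (CD49f-high against CD49f-neg 0.73 ± 0.32, adjusted p = 0.141) and was called with its copy (0.62, 0.0436) and without CD49f-high replicate 2 (1.05, 0.0337). Gpi1 was not called in any contrast, with or without its copy.

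Both lactate dehydrogenase genes were higher in CD49f-high relative to CD49f-neg. Ldhb (chromosome 6, 142490249 to 142507957), whose subunit prevails in heart, had 0.836, 0.461 and 0.279 FPKM in CD49f-neg, 2.46, 1.84 and 2.11 FPKM in CD49f-low and 3.34, 2.73 and 3.58 FPKM in CD49f-high. No gates overlapped, and Ldhb was higher by 1.48 ± 0.16 in CD49f-high (adjusted p = 0.000163) and by 1.05 ± 0.16 in CD49f-low (adjusted p = 0.00229) than in CD49f-neg. With its copy Gm5514 added, Ldhb was higher by 1.90 (adjusted p = 0.000684) and 1.45 (adjusted p = 0.00573). The difference of Ldhb between CD49f-high and CD49f-low, 0.43 ± 0.16, was called with the replicate block (adjusted p = 0.0462, against 0.103 without it). With the copy added and no block it was 0.45 (limma, adjusted p = 0.275). CD49f-low (3.92 to 7.83 FPKM) and CD49f-high (6.18 to 8.72 FPKM) then overlapped. Ldha, the subunit of muscle and of hypoxic cells, had 10.3, 11.4 and 10.4 FPKM in CD49f-neg, 17.4, 17.3 and 15.3 FPKM in CD49f-low and 28.5, 15.1 and 13.9 FPKM in CD49f-high. Its difference of 0.72 ± 0.22 between CD49f-high and CD49f-neg was called (adjusted p = 0.0469) and was 0.41 without CD49f-high replicate 1 (0.0295). The Ldha call was lost after median-of-ratios scaling (0.0647) and without any 1 CD49f-neg or CD49f-low library (0.0650 to 0.123). Between CD49f-low and CD49f-neg, Ldha differed by 0.60 ± 0.22 (adjusted p = 0.1004, or 0.00433 without CD49f-high replicate 1).

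The share of Ldhb in Ldha + Ldhb was 7.54%, 3.88% and 2.62% in CD49f-neg, 12.4%, 9.61% and 12.1% in CD49f-low and 10.5%, 15.4% and 20.4% in CD49f-high (exact permutation test, two-sided, p = 0.0107, adjusted p = 0.0241). With the copy of Ldhb counted, the adjusted p was 0.0536. The share of the Eno2 row in Eno1 + Eno2 was lower in CD49f-high and CD49f-low (74.0% to 79.9% and 74.3% to 75.6%) than in CD49f-neg (83.9% to 86.5%; exact permutation test, two-sided, p = 0.0250, adjusted p = 0.0375, with copies of Eno1 0.0536). With the copies of Eno1 counted, the share was 16.0% to 17.6% in CD49f-neg, 11.1% to 11.45% in CD49f-low and 9.68% to 12.6% in CD49f-high. That row joins several genes, and Eno1 has near-identical copies, so the share of Eno2 is uncertain on both sides. Aldoc made up at most 1.497% of Aldoa + Aldoc (exact permutation test, two-sided, p = 0.0571, adjusted p = 0.0735).

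**Figure D4:**
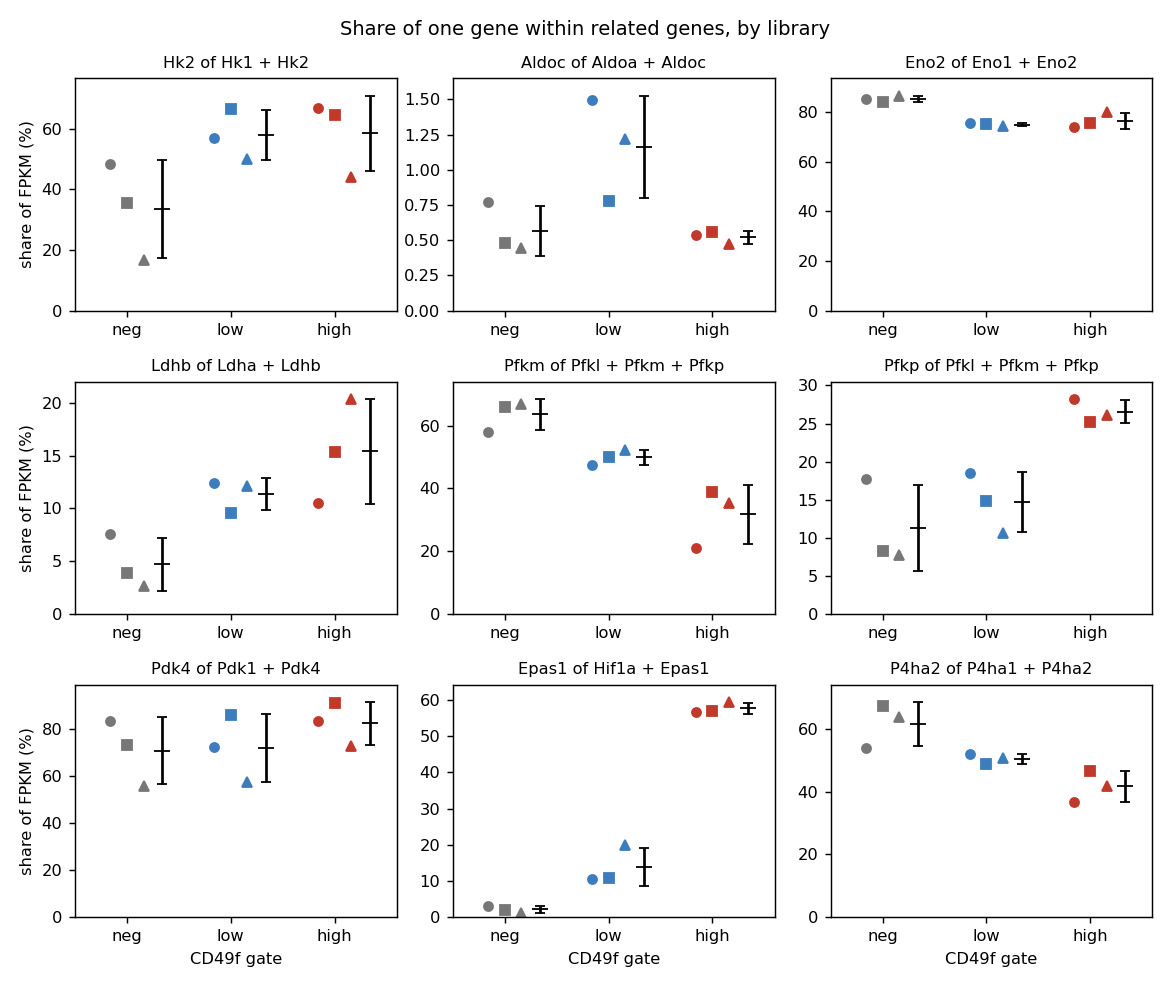
Share of FPKM, in percent, of the first gene within each set of related genes, by CD49f gate; circles, squares and triangles are replicates 1, 2 and 3, and the bar is the mean with its SD. The shares of Pfkm and Epas1 do not overlap between gates, at 21.1% to 38.9% and 56.8% to 59.6% in CD49f-high. Near-identical copies are not counted.

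Pyruvate dehydrogenase kinases, which keep pyruvate out of the mitochondrial route, were not called, 0 of 2 in each contrast by limma over all rows, and 0 of 2 at an unadjusted p under 0.05. Pdk1, a hypoxia target, had 0.703 to 2.16 FPKM in all libraries. Pdk4, which is induced by fasting and fatty acids, spread widely within each gate, with 1.93 to 6.72 FPKM in CD49f-neg, 1.80 to 5.87 FPKM in CD49f-low and 3.34 to 10.9 FPKM in CD49f-high. With the replicate block, Pdk4 was higher in CD49f-high by 0.67 than in either other gate (adjusted p = 0.0395 against CD49f-neg and 0.0461 against CD49f-low). Without CD49f-high replicate 1, and without the block, these differences were 0.33 each (adjusted p = 0.709 and 0.68). The share of Pdk4 in Pdk1 + Pdk4 was 55.5% to 83.4% in CD49f-neg, 57.2% to 85.8% in CD49f-low and 72.7% to 90.9% in CD49f-high, a difference within the spread between libraries (exact permutation test, two-sided, p = 0.532, adjusted p = 0.532). Among 13 genes of pyruvate entry, 1 was higher in CD49f-low than in CD49f-neg and 1 was higher in CD49f-high relative to CD49f-neg, and 0 were called by limma between CD49f-high and CD49f-low, also at an unadjusted p under 0.05. Pdhb, a subunit of pyruvate dehydrogenase, had 7.31, 8.03 and 8.44 FPKM in CD49f-low against 5.70, 5.06 and 4.60 FPKM in CD49f-neg (0.55 ± 0.12, adjusted p = 0.0144, or 0.148 after median-of-ratios scaling). The Pdhb call was also lost without CD49f-neg replicate 3 or CD49f-low replicate 2 or 3 (0.0547 to 0.0643). Dlat, another subunit, had 9.58, 6.20 and 6.21 FPKM in CD49f-high against 4.93, 4.93 and 4.55 FPKM in CD49f-neg (0.50 ± 0.15, adjusted p = 0.0429). That call was lost without any 1 library other than CD49f-high replicate 2 or 3 (0.0579 to 0.128) and after median-of-ratios scaling (0.069).

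Of the 36 genes, 33 have a promoter window in RefSeq (GRCm38.p6), from 250 bases before to 50 bases after the start of transcription. Searched on both strands for ACGTG and GCGTG, the core letters of the hypoxia response element, 29 of the 33 held a match in at least 1 window and 22 held at least 2, with overlapping matches counted once. That was 87.9% and 66.7%, against 46.7% and 19.2% of all 27025 genes with a window, and against 69.1% and 35.3% of the 8776 genes with a window among those tested. A match is a run of letters and not a bound site. The windows of 3 genes that were higher in CD49f-high and of P4ha2, which was lower there, are shown because they carry such runs whichever way the gene moved. Capitals mark the matches, on the strand of the gene.
Ankrd37 (chr8:45999801-46000100, minus strand): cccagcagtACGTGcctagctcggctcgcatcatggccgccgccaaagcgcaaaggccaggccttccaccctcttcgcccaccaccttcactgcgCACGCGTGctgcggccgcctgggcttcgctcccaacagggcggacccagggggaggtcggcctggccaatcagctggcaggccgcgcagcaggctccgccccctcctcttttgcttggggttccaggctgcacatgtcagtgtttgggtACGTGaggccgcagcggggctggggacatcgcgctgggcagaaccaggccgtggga
Ddit4 (chr10:59951721-59952020, minus strand): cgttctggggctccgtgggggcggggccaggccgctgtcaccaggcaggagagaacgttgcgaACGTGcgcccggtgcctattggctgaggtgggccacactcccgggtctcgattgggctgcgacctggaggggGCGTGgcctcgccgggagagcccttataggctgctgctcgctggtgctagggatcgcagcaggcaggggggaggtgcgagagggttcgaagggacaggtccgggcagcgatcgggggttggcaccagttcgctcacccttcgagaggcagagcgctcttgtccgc
Pfkfb3 (chr2:11502041-11502340, minus strand): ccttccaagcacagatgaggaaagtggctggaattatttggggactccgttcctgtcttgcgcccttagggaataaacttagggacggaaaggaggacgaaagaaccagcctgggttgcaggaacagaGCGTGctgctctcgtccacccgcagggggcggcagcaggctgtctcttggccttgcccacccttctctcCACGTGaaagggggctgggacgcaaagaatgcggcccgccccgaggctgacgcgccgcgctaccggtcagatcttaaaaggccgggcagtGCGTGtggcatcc
P4ha2 (chr11:54100674-54100973, plus strand): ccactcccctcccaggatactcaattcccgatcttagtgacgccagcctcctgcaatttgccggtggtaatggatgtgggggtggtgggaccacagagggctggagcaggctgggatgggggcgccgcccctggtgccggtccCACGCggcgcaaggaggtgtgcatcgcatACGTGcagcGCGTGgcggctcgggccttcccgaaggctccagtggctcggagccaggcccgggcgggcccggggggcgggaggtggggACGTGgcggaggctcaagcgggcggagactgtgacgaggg
The windows of Ankrd37, Ddit4, Pfkfb3 and P4ha2 held 3, 2, 3 and 4 matches. The Pfkfb3 window shown is 1 of 2 annotated for that gene.

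Among the 8 hypoxia target genes, 2 were higher and 1 was lower in CD49f-high relative to CD49f-neg, with a median difference of 0.09 that was close to the 0.07 of all rows. Ddit4 (chromosome 10, 59949675 to 59951770) codes for an inhibitor of the growth kinase mTORC1. It had 11.6, 9.29 and 7.99 FPKM in CD49f-neg, 12.4, 13.8 and 12.9 FPKM in CD49f-low and 44.2, 17.9 and 38.0 FPKM in CD49f-high. Its CD49f-high libraries lay above the rest but differed widely among themselves. Ddit4 was higher in CD49f-high relative to CD49f-neg by 1.61 ± 0.28 (adjusted p = 0.00283) and relative to CD49f-low by 1.20 ± 0.28 (adjusted p = 0.0181). The call against CD49f-low was lost without CD49f-low replicate 1 (0.0582), CD49f-low replicate 3 (0.0589) or CD49f-high replicate 3 (0.0668). Without CD49f-high replicate 1, the differences of Ddit4 were 1.37 from CD49f-neg (limma, adjusted p = 0.00878) and 0.95 from CD49f-low (0.0489). Ankrd37 (chromosome 8, 45996902 to 45999867), a small ankyrin-repeat protein gene, had 0.538, 0.927 and 0.895 FPKM in CD49f-neg, 1.20, 1.27 and 1.15 FPKM in CD49f-low and 2.48, 1.73 and 1.47 FPKM in CD49f-high. No gates overlapped, and the difference of 0.69 ± 0.15 between CD49f-high and CD49f-neg was called (limma, adjusted p = 0.0104). It was 0.55 without CD49f-high replicate 1 (0.0285).

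P4ha2 (chromosome 11, 54100095 to 54131665), a catalytic subunit of the collagen prolyl 4-hydroxylase, went down with the gates. It had 18.3, 19.3 and 15.7 FPKM in CD49f-neg, 16.4, 10.7 and 12.1 FPKM in CD49f-low and 6.46, 8.75 and 7.15 FPKM in CD49f-high, below every other library. P4ha2 was lower in CD49f-high relative to CD49f-neg, with a difference of -1.16 ± 0.17 (adjusted p = 0.000935), and relative to CD49f-low, with -0.72 ± 0.17 (adjusted p = 0.0165, or 0.0540 without CD49f-high replicate 3). Between CD49f-low and CD49f-neg it differed by -0.44 ± 0.17 (adjusted p = 0.104), and by -0.70 after median-of-ratios scaling (adjusted p = 0.0198) and -0.60 without CD49f-low replicate 1 (adjusted p = 0.0404). P4ha1, the other common catalytic subunit, was not called, with 11.3 ± 3.82 FPKM in CD49f-neg, 12.6 ± 2.16 FPKM in CD49f-low and 10.4 ± 0.641 FPKM in CD49f-high (SD, n = 3 each). P4ha2 thus made up 54.0%, 67.4% and 64.1% of P4ha1 + P4ha2 in CD49f-neg, 52.0%, 48.9% and 50.8% in CD49f-low and 36.8%, 46.6% and 41.8% in CD49f-high, with p = 0.00357 in the exact permutation test, the smallest it can give (two-sided, adjusted p = 0.0107). Collagen genes were lower beside it: 8 of 9 fibroblast markers, among them Col1a1, Col1a2 and Col3a1, were lower in CD49f-high relative to CD49f-neg, and their part in the change of P4ha2 was not tested.

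The other 5 target genes were not called. Adm, the gene of the vasodilator peptide adrenomedullin, had 9.47 to 17.9 FPKM in CD49f-neg, 12.8 to 14.3 FPKM in CD49f-low and 7.50 to 11.8 FPKM in CD49f-high. Its difference of -0.49 ± 0.22 between CD49f-high and CD49f-neg had adjusted p = 0.140, and 0.0487 with the replicate block and 0.0265 without CD49f-neg replicate 3. The mitophagy receptor gene Bnip3 had 5.29 FPKM in CD49f-high replicate 1 and 0.563 to 1.45 FPKM elsewhere, and differed from CD49f-neg by 0.72 ± 0.36 with that library (limma, adjusted p = 0.202) and 0.22 without it (0.503). With 2 copy rows added, Bnip3 had 21.3 FPKM in that library and 2.85 to 5.41 FPKM elsewhere. Its relative Bnip3l had 1.09 to 3.41 FPKM in its own row and 14.1 to 23.0 FPKM with its copy Bnip3l-ps. Ndrg1, a stress-response gene, had 1.99 to 5.89 FPKM.

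Egln3 and Pdk4 varied with replicate number. Egln3 had 18.6, 5.91 and 6.61 FPKM in CD49f-neg, 13.1, 4.55 and 5.13 FPKM in CD49f-low and 11.3, 4.59 and 5.89 FPKM in CD49f-high. Replicate 1 was thus the highest in every gate, and the gates overlapped. A test of replicate number beside the gate, chosen after these values were seen, called Egln3 (limma, adjusted p = 0.0148) and Pdk4 (adjusted p = 0.0366), 2 of the 35 genes, a share close to the 4.23% of all rows. Over all gates the log2 level of Egln3 was 1.23 higher in replicate 1 than in the mean of replicates 2 and 3. Replicate 1 was the highest library of every gate for 7 of the 35 genes, Egln3, Bnip3l, Pfkp, P4ha1, Bnip3, Hif1a and Pgk1, against 15.3% of all rows, and the lowest for 3, Pfkm, Gapdh and Egln1, against 12.7% of all rows. With the replicate block, Egln3 was lower in CD49f-low and in CD49f-high relative to CD49f-neg, with a difference of -0.37 each (adjusted p = 0.0449 and 0.0395, against 0.615 and 0.649 without it). Over the other settings, all without the block, these differences ran from -0.79 to 0.11 and from -0.70 to 0.11, and both were positive without CD49f-neg replicate 1. Bnip3l was lower in CD49f-low than in CD49f-neg with the block, with a difference of -0.51 (adjusted p = 0.0355, against 0.185), and with its copy added and no block that difference was 0.03 (0.912). Summed erythroid markers were 73.3 to 293 FPKM in CD49f-low and 34.8 to 288 in CD49f-high, highest in replicate 1 of both, and 120 to 473 in CD49f-neg, highest in replicate 3. What the replicate numbers stand for is not stated.

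**Figure D5:**
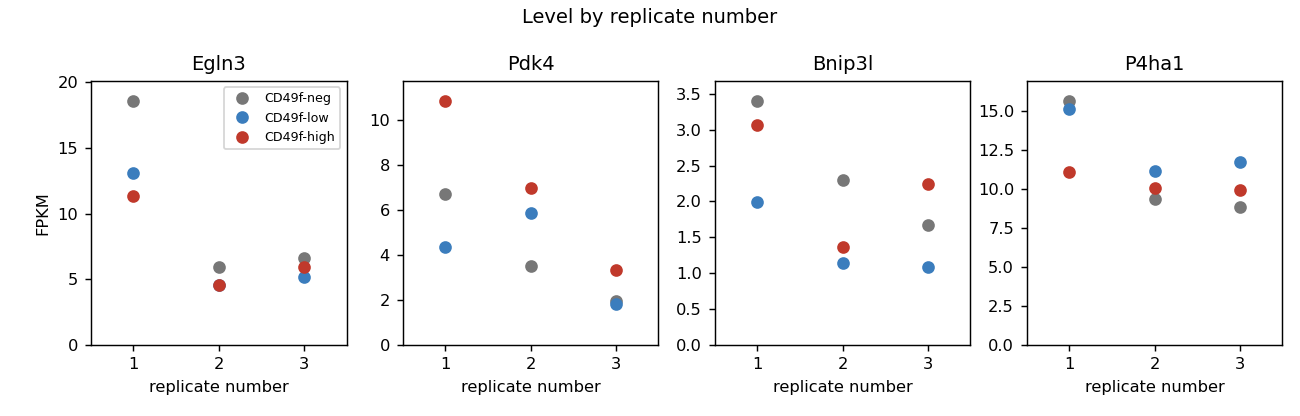
FPKM of Egln3, Pdk4, Bnip3l and P4ha1 against the replicate number of the library, coloured by CD49f gate. For Egln3 the replicate 1 libraries lie at 11.3 to 18.6 FPKM and the other 6 at 4.55 to 6.61 FPKM.

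The wider pathway was read from lists of 117 further genes, of which 112 have a row and 91 were tested. Between CD49f-high and CD49f-neg, 26 were higher in CD49f-high and 2 lower; between CD49f-low and CD49f-neg, 17 were higher in CD49f-low and 0 lower (4 at an unadjusted limma p under 0.05), and 26 and 3 with the replicate block; between CD49f-high and CD49f-low, 12 were higher in CD49f-high and 7 lower. Of all rows, 13.9% were called higher and 8.27% lower in the first contrast, 12.8% and 2.62% in the second, and 5.93% and 10.5% in the third. With the block the second had 24.0% and 4.34%. The counts of each list below are to be read against these shares. Of 7 tested glucose and lactate transporters, 4 were higher in CD49f-high relative to CD49f-neg, 1 was higher in CD49f-low than in CD49f-neg and 3 were higher in CD49f-high relative to CD49f-low. Slc2a1, the glucose transporter of most cells, had 2.81, 2.59 and 1.38 FPKM in CD49f-neg, 4.87, 7.47 and 4.19 in CD49f-low and 12.2, 9.81 and 7.28 in CD49f-high. It was higher by 1.73 ± 0.25 in CD49f-high (adjusted p = 0.000941) and by 1.00 ± 0.25 in CD49f-low (adjusted p = 0.0278) than in CD49f-neg. The CD49f-low call of Slc2a1 was lost after median-of-ratios scaling (0.0690) and without CD49f-neg replicate 2 or 3 or CD49f-low replicate 1 or 2 (0.0519 to 0.0955). With the block it was higher in CD49f-high relative to CD49f-low too (adjusted p = 0.0128, against 0.0786). Slc2a3, the high-affinity transporter of neurons, passed the filter through CD49f-high alone, so its part in these counts is no independent result. It had 0.118, 0.132 and 0.102 FPKM in CD49f-neg, 0.341, 0.347 and 0.420 FPKM in CD49f-low and 3.33, 1.46 and 2.01 FPKM in CD49f-high (CD49f-high against CD49f-neg 1.51 ± 0.19, adjusted p = 0.000376). Slc2a4, the insulin-responsive transporter, differed by 1.17 ± 0.23 in the same contrast (adjusted p = 0.00506), and the lactate exporter Slc16a3 by 0.90 ± 0.22 (adjusted p = 0.0174, or 0.0519 and 0.0630 without CD49f-neg replicate 2 or 3). Against CD49f-low, the call of Slc2a4 (limma, adjusted p = 0.0200) was lost without CD49f-low replicate 2 (0.0660) or 3 (0.0715). That of Slc16a3 (0.0317) was lost without any 1 CD49f-low library, CD49f-neg replicate 2 or CD49f-high replicate 3 (0.0517 to 0.0987).

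Of 12 tested glycogen enzymes, 5 were higher in CD49f-high relative to CD49f-neg and 3 relative to CD49f-low, and the others were not called. Among those, Pygb, the brain-type phosphorylase, was lower in CD49f-high relative to CD49f-neg after median-of-ratios scaling (-0.41, adjusted p = 0.044, against 0.111). Pygm, the muscle-type glycogen phosphorylase that frees glucose from glycogen, had 1.27, 0.464 and 0.302 FPKM in CD49f-neg, 1.77, 1.42 and 1.71 FPKM in CD49f-low and 9.45, 7.63 and 10.03 FPKM in CD49f-high. It was higher in CD49f-high by 2.62 ± 0.20 than in CD49f-neg (adjusted p = 2.15e-05) and by 1.93 ± 0.20 than in CD49f-low (adjusted p = 0.000232). Gyg, the primer protein of glycogen synthesis, was higher in CD49f-high relative to CD49f-neg by 1.58 ± 0.22 (adjusted p = 0.000837). Its call against CD49f-low (limma, adjusted p = 0.0387) was lost without CD49f-neg replicate 2, any 1 CD49f-low library or CD49f-high replicate 1 or 3 (0.0507 to 0.102). Ppp1r3c, which targets a phosphatase to glycogen, had 5.32, 3.09 and 3.52 FPKM in CD49f-neg, 3.49, 2.12 and 2.39 FPKM in CD49f-low and 16.5, 6.92 and 8.90 FPKM in CD49f-high. It was higher in CD49f-high relative to CD49f-low by 1.62 ± 0.29 (adjusted p = 0.00446). Pgm2 differed by 0.99 ± 0.22 between CD49f-high and CD49f-neg (adjusted p = 0.0112). In CD49f-low, 2 of 12 were called higher than in CD49f-neg, Gyg (adjusted p = 0.0444) and Pygm (adjusted p = 0.0469). Both calls were lost after median-of-ratios scaling (0.144 and 0.145) and without CD49f-neg replicate 2 or 3 or any 1 CD49f-low library (0.0911 to 0.154), and that of Pygm also without any 1 CD49f-high library (0.0542 to 0.0575).

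The lists of other branches were short, and 13.9% of all rows were called higher and 8.27% lower in CD49f-high relative to CD49f-neg. Of 8 pentose phosphate enzymes, 2 were higher in CD49f-high relative to CD49f-neg: H6pd, the form of the endoplasmic reticulum, by 0.66 ± 0.10 (adjusted p = 0.00122), and Pgd by 0.45 ± 0.13 (adjusted p = 0.0353). The Pgd call was lost after median-of-ratios scaling (0.0549) and without any 1 library other than CD49f-low replicate 1 or CD49f-high replicate 3 (0.0512 to 0.111). Of 7 tested further isozymes, 1 was higher and 1 lower in CD49f-high relative to CD49f-neg. Adpgk, an ADP-dependent glucokinase, was lower in CD49f-high (7.25, 10.1 and 9.81 FPKM) than in CD49f-neg (13.2, 16.5 and 15.4 FPKM), with a difference of -0.68 ± 0.15 (adjusted p = 0.00969). Between CD49f-low and CD49f-neg, Adpgk differed by -0.39 (limma, adjusted p = 0.104, or 0.0144 with the replicate block). After median-of-ratios scaling that difference was -0.66 (0.0245). Galm was higher in CD49f-high relative to CD49f-neg (0.52 ± 0.13, adjusted p = 0.0207), a call lost without CD49f-neg replicate 3 or CD49f-high replicate 1 or 2 (0.0548 to 0.0761). Pck2, the mitochondrial carboxykinase, differed by 0.59 ± 0.16 between CD49f-high and CD49f-low (adjusted p = 0.0369). That call was lost without CD49f-neg replicate 3, CD49f-low replicate 1 or 3 or any 1 CD49f-high library (0.0516 to 0.119). Bpgm, which makes the oxygen-affinity regulator of red cells, was higher in CD49f-low than in CD49f-neg (0.80 ± 0.24, adjusted p = 0.0492). The Bpgm call was lost after median-of-ratios scaling (0.184) and without any 1 CD49f-neg or CD49f-low library or CD49f-high replicate 3 (0.0588 to 0.145).

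Of 33 tested further hypoxia targets, 12 were higher and 1 lower in CD49f-high relative to CD49f-neg, 11 were higher in CD49f-low than in CD49f-neg, and 4 were higher and 6 lower in CD49f-high relative to CD49f-low. They fell into more than 1 pattern. Vegfa, the endothelial growth factor, was higher in both CD49f-positive gates, with 4.13, 3.35 and 2.97 FPKM in CD49f-neg, 6.05, 8.83 and 7.601 FPKM in CD49f-low and 7.74, 8.03 and 9.28 FPKM in CD49f-high. It was higher than in CD49f-neg by 1.07 ± 0.15 in CD49f-high (adjusted p = 0.000834) and by 0.92 ± 0.15 in CD49f-low (adjusted p = 0.00358). Bhlhe40, a transcriptional repressor, was higher by 2.01 ± 0.23 in CD49f-high (adjusted p = 0.000217) and by 1.29 ± 0.23 in CD49f-low (adjusted p = 0.00530) than in CD49f-neg. Its relative Bhlhe41 peaked in CD49f-low, with 4.49, 5.11 and 5.23 FPKM, against 0.571, 1.44 and 0.762 in CD49f-high and 0.754, 0.448 and 0.415 in CD49f-neg. It was lower in CD49f-high relative to CD49f-low with a difference of -1.65 ± 0.17 (adjusted p = 0.000250). Bhlhe41 needed its CD49f-low libraries to pass the filter, so its peak there is no independent result. Igfbp3, a carrier of insulin-like growth factors, also peaked in CD49f-low, with 132, 124 and 135 FPKM there, against 41.9, 50.8 and 41.4 in CD49f-high and 58.9, 51.5 and 32.8 in CD49f-neg. It was higher in CD49f-low than in CD49f-neg by 1.47 ± 0.20 (adjusted p = 0.00110). Melanocyte and dermal papilla markers also peaked in CD49f-low, where the 7 dermal papilla markers summed to 114 to 157 FPKM, against 23.1 to 37.1 in CD49f-high and 20.8 to 33.3 in CD49f-neg. Their part in these peaks was not tested.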

How the data were processed

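RNA-seq levels of 9 libraries, 3 from each of 3 CD49f gates, were analysed as deposited. The authors deposited FPKM values per gene in 1 table. The mouse build GRCm38 and the tools TopHat2, StringTie and FastQC are named per the submitters' processing notes, and versions are not given in the sources used here. How reads with several alignments were assigned is not given either, and rows that join overlapping genes (1002 of 84809 rows hold 2 or more symbols) cannot be split. Every deposited sample column was used.

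From these values, log2(FPKM + 1) of the 20523 rows with at least 1 FPKM in at least 3 libraries was fitted with limma 3.58.1 in R 4.3.3, with 1 mean per gate, a trended prior variance and 6 residual degrees of freedom. The 3 contrasts between gates and the moderated F test had their p-values adjusted after Benjamini and Hochberg across the tested rows, at 0.05. All differences are on the log2(FPKM + 1) scale. Isozyme shares were tested with an exact permutation F test, two-sided, adjusted over 9 shares. It assigned libraries to gates regardless of replicate number and so took no account of the pairing described below. Copies were found with blastn 2.17.0. The code was tested on simulated data.

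The members and lists were chosen with earlier results of these data known. Genes called in any contrast are given in full. Of each wider list, up to 4 called genes with the smallest adjusted p are named, or the 2 most abundant where no gene was called. Libraries with the same replicate number deviated together from their gate means in each of the 9 pairs (r = 0.252 to 0.520, against -0.453 to 0.118 for other pairs), so the numbers pair the libraries by this check of the data, although the labels do not say what a number marks. Values with replicate number as a block are given where they change a call of the 35 tested genes, and for some of the wider genes. The alternatives tried were another pseudocount, other filters, median-of-ratios scaling, quantile normalization, the replicate block, a fit on 6 libraries and leaving out each library. Sums with near-identical copies and the test of replicate number were chosen after seeing the data. One marker list is not reported here.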

Additional observations from a re-analysis of the deposited data

How the results depend on the processing

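Of the 35 tested glycolysis and hypoxia genes, the calls that held under every setting that tested them were 13 between CD49f-high and CD49f-neg, 3 between CD49f-low and CD49f-neg (Pkm, Ldhb and Epas1) and 3 between CD49f-high and CD49f-low (Pfkfb3, Epas1 and Hif3a). Ldhb, Epas1 and Ankrd37 are among the 13. They passed the filter through the gates where they are high, so their calls against CD49f-neg are no independent result. A filter of 5 FPKM tested 24 of the genes. Over all single-gene values, 1559 kept their direction and side of the threshold, 73 lost a call and 39 gained one, and no called value changed sign. Uncalled differences of 6 genes between CD49f-low and CD49f-neg (Eno2, Pdk4, Pfkfb4, Hif1a, P4ha1 and Adm) and of 4 between CD49f-high and CD49f-low (Pgam1, Pdk1, Egln3 and Ndrg1) changed sign after median-of-ratios scaling.

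Between CD49f-low and CD49f-neg, the genes called numbered 4 without a filter and 4 with the stricter filter, against 7, and 3 to 10 with 1 library left out. Between CD49f-high and CD49f-low, 4 were called without a filter, against 7, and 4 to 7 with 1 library left out. Of the wider pathway genes, between CD49f-low and CD49f-neg, 10 were called without a filter, 10 with the stricter filter, 11 under median-of-ratios scaling, 10 under quantile normalization, 29 with the replicate block and 8 to 23 with 1 library left out, against 17. Between CD49f-high and CD49f-neg, 18 of them were called with the stricter filter, against 28. Between CD49f-high and CD49f-low, 10 were called without a filter and 10 with the stricter filter, against 19, and 10 to 20 with 1 library left out. Of all rows, between CD49f-low and CD49f-neg, the stricter filter called 1358, quantile normalization 2044, the replicate block 5806 and the fits without 1 library 1614 to 3764, against 3160. The stricter filter called 1911 rows between CD49f-high and CD49f-neg, against 4541, and 1323 between CD49f-high and CD49f-low, against 3367. The replicate block called 5309 in that last contrast, and the fits without 1 library 2201 to 3585. Of the 9 isozyme shares, 2 to 6 were called with 1 library left out, against 6. The stricter filter tests fewer rows, and the fits without a library have fewer samples. The cause of the other changes was not tested. Beyond the calls named with the block in the text, the replicate block changed no other call of the 35 genes between gates. No depth-based interval was computed, since the fragments per library were only estimated from FPKM steps.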
